A study of Eublepharis macularius with 8 samples.

Results

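Mitosis is the stage of the cell cycle in which duplicated chromosomes are condensed, attached to a spindle of microtubules and pulled into 2 daughter cells. The 42 genes described here encode its kinases and cyclins, the condensin and kinetochore proteins of the chromosomes, the motors of the spindle and the proteins that divide the cell. They were taken by exact gene symbol from a table of 22488 genes measured in teeth of the leopard gecko (Eublepharis macularius), and 39 of the 42 symbols had a row. AURKB, SPC24 and CDC20 are not analysed here. Of the 39, 38 had counts high enough to be tested and CCNB2 did not.

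The study set functional teeth, those in use, against developing teeth, their growing replacements, both from adult animals. Its title names odontoclasts, the cells that resorb tooth tissue. Functional and developing teeth each had 4 libraries. In both groups replicates 1 to 3 were from females and held 3 teeth each, while replicate 4 was from males and held 10 functional or 11 developing teeth. No treatment or genetic change is named for any group, and the labels do not say how many animals gave the teeth, so that a p-value covers no more than the spread among these libraries.

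Many mitotic genes are transcribed late in the cell cycle, under factors such as FOXM1 and the MuvB complexes, and several of their proteins are destroyed as cells leave mitosis. Their mRNA is therefore widely used as a sign of dividing cells in a tissue. Reptiles that replace their teeth form each new one from dividing epithelium and mesenchyme, whereas odontoblasts, ameloblasts and odontoclasts are differentiated cells. The roles given below are those known from vertebrate cells, mostly of mammals, and from yeast. A tooth sample is a mixture of cell types, and in such bulk RNA fewer dividing cells and less mitotic mRNA per cell cannot be told apart.

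Depth lay between 21020159 and 30935120 estimated counts in functional libraries and between 14144573 and 21739182 in developing libraries. RNA integrity numbers were 9.1 to 9.6 in functional and 8.8 to 9.6 in developing libraries. The 2 type I collagen genes took 29.2% to 33.2% of the counts of functional libraries and 4.37% to 20.6% of those of developing libraries, and the TMM factors that scale for such composition were 0.752 to 0.853 in functional and 1.104 to 1.386 in developing libraries. Enamel and dentin genes marked the samples as teeth: AMBN and DSPP had counts in every library.

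Each of the 38 tested mitotic genes had a lower fitted level in functional teeth, with the largest differences in KIF20A and FOXM1. Of the 38, 13 fell and 0 rose at an adjusted p under 0.05 in edgeR's quasi-likelihood test over all 15491 genes, of which 2.01% fell and 0.8% rose. The 13 were KIF20A, FOXM1, PLK1, CENPE, RACGAP1, KIF11, TPX2, BUB1, CENPF, CDK1, CCNB3, SMC2 and CCNA2. All 38 had a negative log2 fold change (functional minus developing), as did 49.8% of all genes. The median was -1.82 over the 38 and 0 over all genes, and the range ran from -2.7 for KIF20A to -0.7 for INCENP. A difference of more than 2-fold (log2 fold change under -1) was reached by 32 of the 38, against 6.5% of all genes. The 4 functional libraries lay below the 4 developing libraries, with no overlap, for 32 of the 38 genes and for 8.6% of all genes. These counts cover only genes that passed the filter on low counts. KIF2C, with 5 to 16 counts in functional and 29 to 66 in developing libraries, passed it through its developing libraries. CCNB2, low in both groups and with a log2 fold change of -0.24 without the filter, was left out.

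At an unadjusted p under 0.05, 37 of the 38 were lower and 0 higher, where all genes had 12.8% lower and 9.53% higher. DESeq2's Wald test called 34 lower and 0 higher, with 6.3% of all genes lower and 4.74% higher. With the replicate number as a block, 5 of the 38 fell (0.975% of all genes), and 4 of the 13 kept the call: KIF20A, FOXM1, PLK1 and RACGAP1. The calls also depended on single libraries. None of the 38 passed without functional replicate 2, 3 or 4 or without developing replicate 3 or 4, where the smallest adjusted p among them was 0.0842, 0.0987, 0.0734, 0.0752 and 0.0605 in that order. All genes had 0.0581%, 0.0323%, 0.0387%, 0.161% and 0.271% lower in those fits. At an unadjusted p under 0.05, 36, 36, 36, 35 and 36 of the 38 were lower, against 9.93%, 9.58%, 11.5%, 9.08% and 9.44% of all genes. Without functional replicate 1, 6 fell (0.833% of all genes), without developing replicate 1, 11 fell (1.86%), and without developing replicate 2, 23 fell (2.87%). All 38 log2 fold changes stayed negative in each of these fits, with medians between -2.06 and -1.59.

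**Figure D1:**
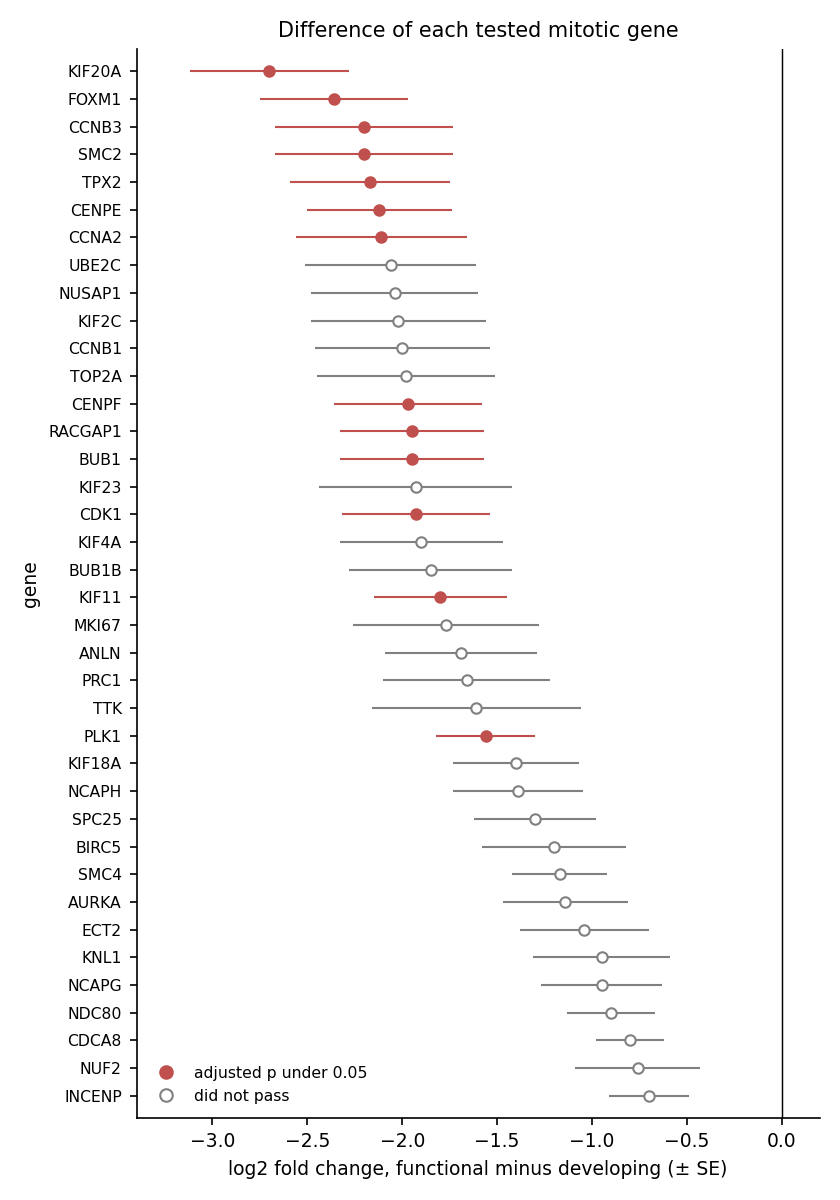
Log2 fold change, functional minus developing, of the 38 tested mitotic genes (points) with its standard error (bars), ordered from the most to the least negative; filled points passed an adjusted p of 0.05. Every point lies below 0, from -2.7 for KIF20A to -0.7 for INCENP, and 13 are filled.

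A score was computed for each library as the mean, over the 38 genes, of log2 CPM (CPM, counts scaled to library size with TMM factors) relative to the gene's mean over the 8 libraries. Functional replicates 1 to 4 scored -0.31, -1.19, -0.91 and -0.77, and developing replicates 1 to 4 scored 0.41, 0.18, 1.4 and 1.21. The groups did not overlap, but each had members apart: functional replicate 1 was closest to the developing libraries, and developing replicates 1 and 2 lay well below developing replicates 3 and 4. Group means were -0.8 ± 0.37 in functional and 0.8 ± 0.6 in developing teeth (SD, n = 4 each), a difference of -1.59. Taken by replicate number, functional minus developing was -0.72, -1.37, -2.31 and -1.98 for numbers 1 to 4. In number 1 the difference was thus the smallest, although all 38 genes were lower in functional replicate 1 than in developing replicate 1 (median -0.77, where all genes had a median of -0.01). For number 2, 37 of 38 were lower and KNL1 was higher, and for numbers 3 and 4 all 38 were lower.

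**Figure D2:**
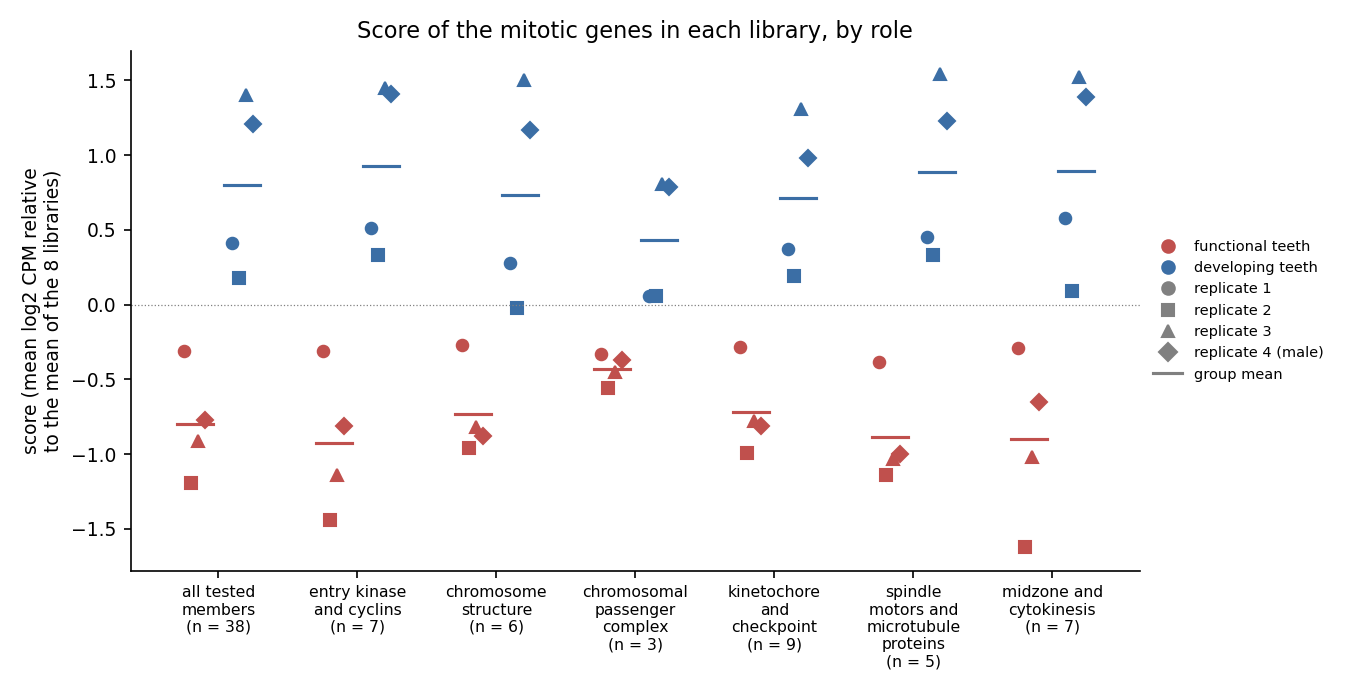
Score of each library (mean log2 CPM relative to the mean of the 8 libraries) over all 38 tested mitotic genes and over 6 groups of them by role; symbols mark the replicate number and lines the group mean. Functional libraries lie below developing libraries in all 7 columns, and the difference of group means is smallest for the chromosomal passenger complex (-0.86).

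The summed level of the 39 genes was 249, 154, 165 and 181 CPM in functional replicates 1 to 4, against 401, 336, 810 and 715 CPM in developing replicates 1 to 4. The highest functional sum was thus below the lowest developing sum. Single genes peaked in the same pair of libraries: 26 of the 38 were highest in developing replicate 3 and 12 in developing replicate 4. The lowest value fell in functional replicate 2 for 25 genes, in functional replicate 4 for 7, in functional replicate 3 for 5 and in functional replicate 1 for 1. The 12 genes that peaked in developing replicate 4, the male library, were CDK1, CCNA2, CCNB3, PLK1, NCAPH, BIRC5, SPC25, TTK, TPX2, KIF4A, ECT2 and UBE2C. Relative spread was large in both groups, with a median coefficient of variation over the 38 genes of 34.2% in functional and 43% in developing teeth.

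**Figure D3:**
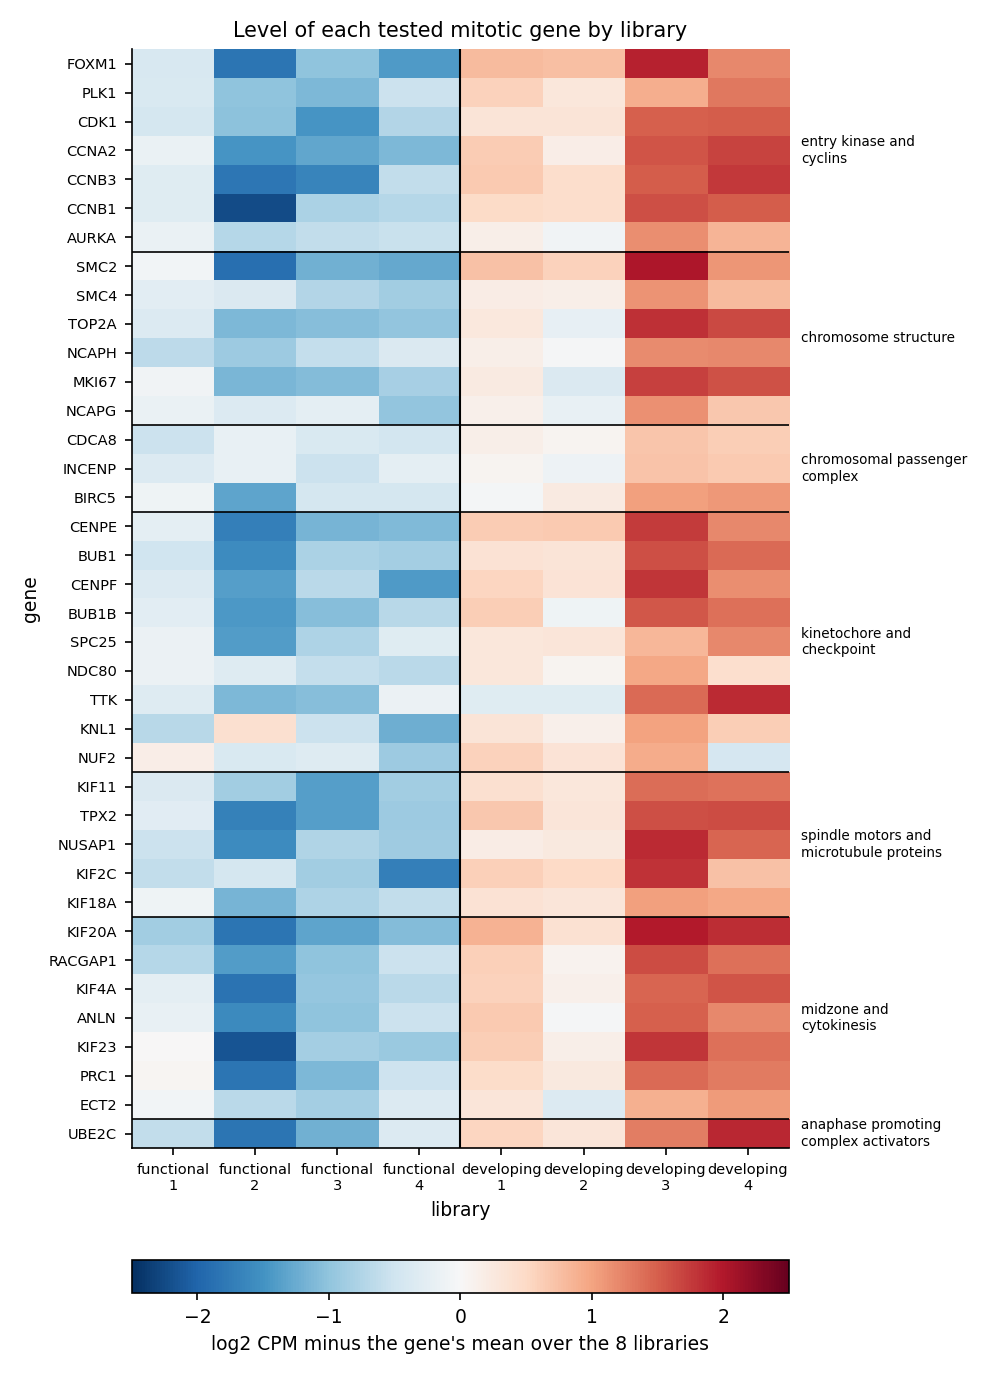
Level of each of the 38 tested mitotic genes (rows, grouped by role) in each library (columns, functional left of developing), as log2 CPM minus the gene's mean over the 8 libraries. Developing replicates 3 and 4 are the highest columns, functional replicate 2 is the lowest, and NUF2 and KNL1 depart from the common pattern.

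The kinases and cyclins that start mitosis held 5 of the 13 calls among 7 tested genes, with a median log2 fold change of -2. CDK1, the kinase whose activation by cyclins drives cells into mitosis, had 3.61, 2.35, 1.7 and 2.91 CPM in functional replicates 1 to 4, against 6.15, 6.12, 13.9 and 14.2 CPM in developing replicates 1 to 4. It fell by 1.93 ± 0.39 (log2, SE; edgeR adjusted p = 0.0426, and 0.0777 with the replicate block). All 4 functional values lay below the lowest developing value, and developing replicates 3 and 4 were more than 2-fold above developing replicates 1 and 2. Cyclin A2 (CCNA2), which activates CDK1 and CDK2 from S phase on, had 4.06, 1.58, 1.81 and 2.04 CPM in functional libraries and 7.09, 5.11, 13.7 and 14.9 CPM in developing libraries (log2 fold change -2.11 ± 0.45, edgeR adjusted p = 0.0488, block 0.0709).

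Among the B-type cyclins, which are CDK1's partners in mitosis itself, CCNB3 passed and CCNB1 did not, though their differences were alike in size. CCNB3, in mammals best known from meiosis, had 3.05, 1.01, 1.14 and 2.43 CPM in functional libraries and 5.98, 5.11, 11 and 13 CPM in developing libraries (log2 fold change -2.2 ± 0.47, edgeR adjusted p = 0.0486, block 0.0595). CCNB1 had 5.98, 1.5, 4.24 and 4.43 CPM in functional libraries and 10.3, 9.99, 22.9 and 21.1 CPM in developing libraries (-2 ± 0.46, edgeR adjusted p = 0.0582). For both genes the groups did not overlap, and functional replicate 2 was the lowest library. CCNB2 stayed under 1 CPM in every library, at 0.508, 0.284, 0.465 and 0.174 CPM in functional libraries and 0.82, 0.138, 0.259 and 0.461 CPM in developing libraries. Its groups overlapped, with 3 to 20 counts per library. Without the filter on low counts its log2 fold change was -0.24 (edgeR adjusted p = 0.855). At so few counts a small difference could not be seen.

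FOXM1, the transcription factor of the late cell cycle genes, had 5.14, 1.87, 3.36 and 2.52 CPM in functional teeth, against 11.9, 11.7, 26.3 and 15.9 CPM in developing teeth. Its lowest developing library was more than 2-fold above its highest functional library, and it kept the call with the block (log2 fold change -2.36 ± 0.39, edgeR adjusted p = 0.031, block 0.0462). PLK1, the polo-like kinase of centrosomes, kinetochores and the midzone, had 10.2, 6.65, 6.1 and 9.21 CPM in functional libraries and 20.1, 16.3, 25.2 and 33.3 CPM in developing libraries (-1.56 ± 0.26, edgeR adjusted p = 0.0315, block 0.0462). Its difference was smaller than that of CDK1 and its standard error was the smaller one too. AURKA, the aurora kinase of spindle poles, averaged 1.81 ± 0.345 CPM in functional libraries and 4 ± 1.63 CPM in developing libraries (SD, n = 4 each) and did not pass (edgeR adjusted p = 0.103).

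Of the proteins that shape mitotic chromosomes, 1 of 6 fell, SMC2, with a group median of -1.58. SMC2, the adenosine triphosphatase subunit shared by both condensins, had 10.4, 2.92, 4.7 and 4.48 CPM in functional libraries and 18.4, 16.4, 44.7 and 23.8 CPM in developing libraries (log2 fold change -2.2 ± 0.47, edgeR adjusted p = 0.0486, block 0.0614). Its partner SMC4 differed less, at -1.17 ± 0.25 (edgeR adjusted p = 0.0515), with no overlap between the groups. The condensin I subunits NCAPH and NCAPG had log2 fold changes of -1.39 and -0.95 and did not pass (edgeR adjusted p = 0.0694 and 0.145).

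MKI67, the common marker of proliferating cells, which coats mitotic chromosomes, had 20.1, 9.53, 10 and 11.9 CPM in functional teeth and 24.9, 16.5, 69.2 and 64.7 CPM in developing teeth. Functional replicate 1 exceeded developing replicate 2, and the gene did not pass (log2 fold change -1.77 ± 0.49, edgeR adjusted p = 0.0912). TOP2A, the topoisomerase that disentangles chromosomes, followed the same order of libraries in developing teeth. It had 12, 6.98, 7.28 and 7.74 CPM in functional libraries and 18.6, 13.2, 54.2 and 48.3 CPM in developing libraries, without overlap (-1.98 ± 0.47, edgeR adjusted p = 0.062). These 2 genes had the same coefficient of variation in developing teeth, 61.6%, and in both, developing replicates 3 and 4 were more than 2-fold above developing replicates 1 and 2.

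The chromosomal passenger complex carries the aurora B kinase from centromeres to the midzone, and none of its 3 tested members passed. Its survivin subunit BIRC5 had 2.37, 0.973, 1.86 and 1.87 CPM in functional libraries and 2.46, 2.99, 5.28 and 5.54 CPM in developing libraries (log2 fold change -1.2 ± 0.38, edgeR adjusted p = 0.121). Functional replicate 1 and developing replicate 1 were nearly equal. INCENP, the scaffold of the complex, had 12.6, 14, 11 and 13.5 CPM in functional libraries and 16.8, 14.7, 26.3 and 25.1 CPM in developing libraries, the least negative log2 fold change of the 38 (-0.7 ± 0.21, edgeR adjusted p = 0.107). CDCA8, which encodes borealin, differed by -0.8 ± 0.18 (edgeR adjusted p = 0.0556). All 3 genes kept the groups apart, where 8.6% of all genes were lower without overlap. The gap was narrow for BIRC5 (2.37 against 2.46 CPM) and INCENP (14 against 14.7 CPM). INCENP and CDCA8 had the smallest relative spread of the 38 in functional teeth, 10.4% and 10.8%. The complex's score was -0.43 ± 0.1 in functional and 0.43 ± 0.43 in developing teeth (SD, n = 4 each), a gap of -0.86 against -1.59 for all 38 genes. The difference between those gaps was not tested.

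Kinetochore and checkpoint genes held 3 calls among 9 tested members, with a median of -1.61. CENPE, a kinesin that carries chromosomes to the spindle equator, had 6.6, 2.35, 3.46 and 3.61 CPM in functional libraries and 12.2, 12.5, 26.5 and 18.3 CPM in developing libraries (log2 fold change -2.12 ± 0.38, edgeR adjusted p = 0.0354, block 0.0555). CENPF, a large protein of the outer kinetochore corona, had 6.77, 3.29, 5.42 and 3.17 CPM in functional libraries and 12.5, 11, 29.8 and 19.6 CPM in developing libraries (-1.97 ± 0.39, edgeR adjusted p = 0.0424, block 0.0565). In both genes developing replicate 3 stood highest and the functional range ended below the developing range. BUB1, a checkpoint kinase that also marks centromeres for the passenger complex, had 3.61, 1.66, 2.89 and 2.78 CPM in functional libraries and 6.6, 6.4, 15.7 and 13.7 CPM in developing libraries (-1.95 ± 0.38, edgeR adjusted p = 0.0417, block 0.0537).

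The checkpoint genes BUB1B and TTK did not pass, at -1.85 and -1.61 (edgeR adjusted p = 0.0597 and 0.145). TTK, the kinase that starts checkpoint signaling, had 4.01, 2.27, 2.38 and 4.56 CPM in functional libraries, against 4.1, 4.05, 13.6 and 18.7 CPM in developing libraries. It had the largest coefficient of variation of the 38 in developing teeth, 72%, and functional replicate 4 lay above developing replicates 1 and 2. The genes of the microtubule-binding kinetochore core had less negative values than CENPE, a contrast that was not tested. NDC80 and SPC25 had log2 fold changes of -0.9 and -1.3, and KNL1, which recruits the BUB proteins, had -0.95 (edgeR adjusted p = 0.0778, 0.0725 and 0.18). NUF2, the partner of NDC80, had 7, 4.75, 4.91 and 3.26 CPM in functional libraries and 9.3, 7.92, 11.9 and 4.61 CPM in developing libraries (-0.76 ± 0.33, edgeR adjusted p = 0.224).

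NUF2 and KNL1 departed most from the common pattern. Relative to the score of its library, NUF2 was 1.62 lower (log2) in developing replicate 4, the library in which 12 other members peaked. KNL1 was 1.59 higher than the score in functional replicate 2, at 9.13 CPM, against 2.91 to 4.7 CPM in the other 3 functional libraries and 7.51 to 13.9 CPM in developing teeth. No other of the 38 genes departed from the score of any library by more than 1.04 (CCNB1 in functional replicate 2). BUB1B followed the score most closely, within 0.28 in each library.

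Among motors and other proteins of the spindle, 2 of 5 fell, KIF11 and TPX2, and the median was -2.02. KIF11, the kinesin that pushes spindle poles apart, had 4.29, 3, 2.07 and 3 CPM in functional libraries and 7.29, 6.77, 14.7 and 14.3 CPM in developing libraries (log2 fold change -1.8 ± 0.35, edgeR adjusted p = 0.0405, block 0.0788). TPX2, which activates AURKA and nucleates microtubules near chromosomes, had 4.85, 1.78, 2.22 and 3.13 CPM in functional libraries and 9.55, 7.37, 18.3 and 18.5 CPM in developing libraries (-2.17 ± 0.42, edgeR adjusted p = 0.041, block 0.0574). The groups were apart for all 5 genes, where 8.6% of all genes were lower in functional teeth without overlap. The microtubule bundling gene NUSAP1 and the depolymerizing kinesin genes KIF2C and KIF18A had log2 fold changes of -2.04, -2.02 and -1.4 without passing (edgeR adjusted p = 0.0518, 0.0582 and 0.0628). KIF2C was measured with as few as 5 counts in a library.

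The genes of the spindle midzone and of cell division held 2 calls among 7, KIF20A and RACGAP1, with a median of -1.9. KIF20A, the kinesin that brings PLK1 and the passenger complex to the midzone, showed the most negative difference of the 38. It had 2.14, 1.05, 1.55 and 1.83 CPM in functional libraries and 7.34, 5.2, 15.9 and 14.4 CPM in developing libraries (log2 fold change -2.7 ± 0.42, edgeR adjusted p = 0.0276, block 0.0446). Every developing library was more than 2-fold above every functional one. RACGAP1, which pairs with KIF23 in the centralspindlin complex, had 3.39, 2.07, 2.74 and 3.87 CPM in functional libraries and 8.52, 5.94, 17.6 and 14.7 CPM in developing libraries (-1.95 ± 0.38, edgeR adjusted p = 0.0403, block 0.0472).

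KIF23 itself had nearly the same log2 fold change as RACGAP1, -1.93, with a larger standard error of 0.51, and did not pass (edgeR adjusted p = 0.081). The chromokinesin gene KIF4A, the microtubule bundler gene PRC1 and the contractile ring gene ANLN had -1.9, -1.66 and -1.69 (edgeR adjusted p = 0.0567, 0.0835 and 0.0621), with the groups apart in each. ECT2, the exchange factor that activates the contractile ring, had -1.04 and overlapped between groups (edgeR adjusted p = 0.128). UBE2C, the ubiquitin-conjugating enzyme of the anaphase promoting complex, averaged 2.72 ± 1.17 CPM in functional libraries and 11.3 ± 5.82 CPM in developing libraries (SD, n = 4 each). Its log2 fold change was -2.06 ± 0.45 with an edgeR adjusted p of 0.0549, or 0.0452 with the replicate block.

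A wider list of 123 other mitosis genes was examined, of which 119 were tested. In functional teeth 16 of them fell and 0 rose (2.01% and 0.8% of all genes), with 108 negative log2 fold changes and a median of -0.71. At an unadjusted p under 0.05, 67 were lower and 0 higher (12.8% and 9.53% of all genes), and DESeq2 called 49 lower and 0 higher (6.3% and 4.74%). With the block 6 fell (0.975% of all genes) and without functional replicate 1 also 6 (0.833%). Without developing replicate 1, 11 fell (1.86%), and without developing replicate 2, 30 fell (2.87%). None passed without functional replicate 2, 3 or 4 or without developing replicate 3 or 4. All genes had 0.0581%, 0.0323%, 0.0387%, 0.161% and 0.271% lower in those fits. The falls lay in the inner kinetochore (5 of 20), the other outer kinetochore and checkpoint genes (3 of 14), the centrosome and other spindle genes (6 of 27), the remaining condensin subunits (1 of 4) and the other regulators of entry and exit (1 of 12).

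The functional libraries lay below the developing ones without overlap for 51 of the 119 and above them for 1, against 8.6% and 6.42% of all genes. The 8 with the smallest p in this comparison were HJURP, ASPM, TACC3, SKA1, SASS6, HMMR, CENPW and NCAPD2. ASPM, which focuses spindle poles, averaged 3.02 ± 1.49 CPM in functional libraries and 17.2 ± 5.96 CPM in developing libraries (SD, n = 4 each; log2 fold change -2.51 ± 0.42, edgeR adjusted p = 0.031, block 0.0462). SKA1, a microtubule-binding protein of the outer kinetochore, averaged 1.4 ± 0.342 CPM in functional libraries and 7.03 ± 3.44 CPM in developing libraries (-2.32 ± 0.40, edgeR adjusted p = 0.0328, block 0.0488). TACC3, a spindle microtubule protein, also kept its call with the block (-2.12 ± 0.36, edgeR adjusted p = 0.0315, block 0.0452). HJURP, the chaperone that loads the centromere histone, fell by 1.62 ± 0.26 on the log2 scale (edgeR adjusted p = 0.0285, block 0.0555). The centriole gene SASS6, the spindle gene HMMR, the inner kinetochore gene CENPW and the condensin gene NCAPD2 fell by 1.35, 1.44, 1.41 and 1.24 (edgeR adjusted p = 0.0374, 0.0378, 0.0403 and 0.0406), and none of these 4 passed with the block (0.0537, 0.0611, 0.0659 and 0.0591).

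The anaphase promoting complex, the cohesin and separase genes and the DREAM and MuvB complexes had no call in edgeR and medians nearer 0. Their log2 fold changes ran from -0.93 to 0.31, from -2.08 to 0.13 and from -1.77 to 0.22, in that order. Of 17 tested genes of the anaphase promoting complex and its regulators 0 passed, and the median log2 fold change was -0.13, and of 15 cohesin and separase genes 0 passed, with a median of -0.3. At an unadjusted p under 0.05 there were 2 lower and 0 higher in the first group and 6 lower and 0 higher in the second, and DESeq2 called 0 and 5 lower and 0 higher in either. All genes had 12.8% lower and 9.53% higher at that unadjusted p, and 6.3% lower and 4.74% higher in DESeq2. The 2 of 17 in the first group lay near the share of all genes. The DREAM and MuvB complexes, which repress and then activate mitotic genes through the cell cycle, had 0 calls among 10 and a median of -0.29. At an unadjusted p under 0.05, 4 of them were lower (12.8% of all genes), and 0 were by DESeq2 (6.3%). The difference of these groups from the 38 genes was not tested. The genes of DNA replication, which precedes mitosis in the cell cycle, gave 0 calls among 34, with 33 negative log2 fold changes and a median of -0.99. At an unadjusted p under 0.05, 24 of them were lower and 0 higher (12.8% and 9.53% of all genes), and DESeq2 called 13 lower and 0 higher (6.3% and 4.74%). MCM2, a subunit of the replicative helicase, had the most negative of them (-1.97 ± 0.52, edgeR adjusted p = 0.0829).

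**Figure D4:**
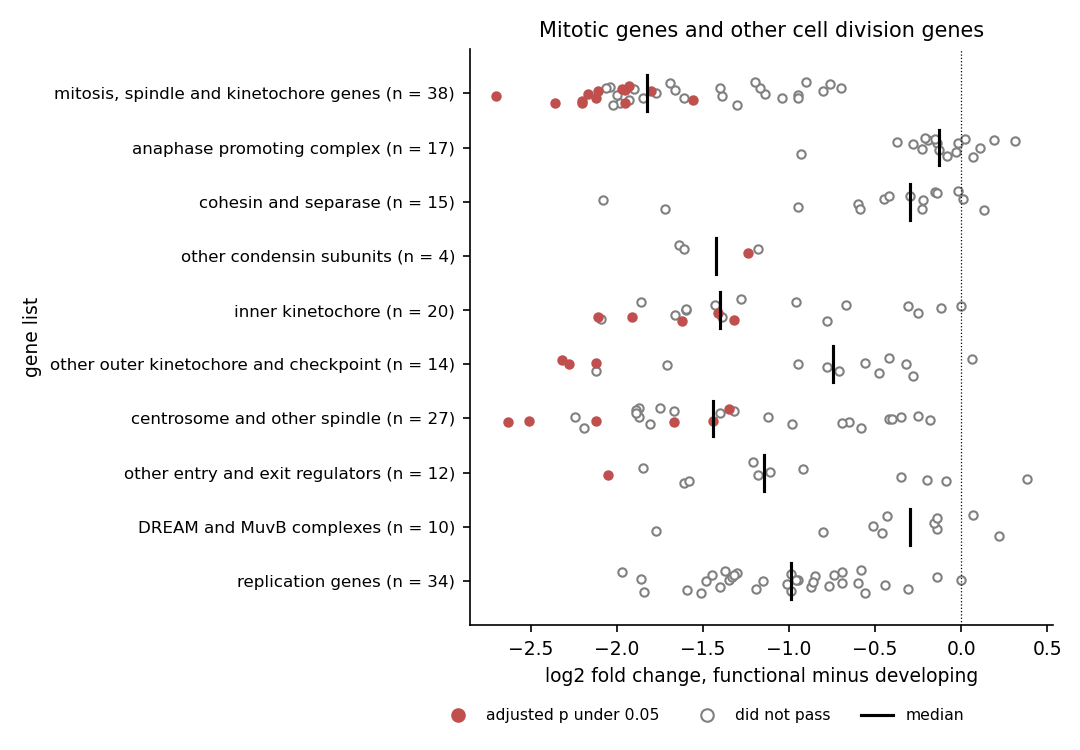
Log2 fold change, functional minus developing, of the 38 tested mitotic genes and of other cell division genes by group (1 point per gene, filled where the adjusted p was under 0.05; black bars are medians). Medians run from -1.82 for the mitotic genes to -0.13 for the anaphase promoting complex.

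The summed level of dental epithelium markers was lower in every functional library than in any developing library, as that of the mitotic genes was. Of 12 tested markers of dental epithelium, SP6 and KRT18 were called lower in functional teeth (2.01% of all genes were). For 6 of the 12 the functional libraries lay below the developing ones without overlap, against 8.6% of all genes. At an unadjusted edgeR p under 0.05, 7 of the 12 were lower and 0 higher (12.8% and 9.53% of all genes). DESeq2 called 6 lower and 0 higher (6.3% and 4.74%), with AMELX and AMBN among the lower. With the replicate block SP6 kept the call (edgeR adjusted p = 0.0462) and KRT18 lost it (0.0349, and 0.0591 with the block). The summed level of this list was 1640, 412, 431 and 570 CPM in functional replicates 1 to 4, against 4820, 9190, 19600 and 31200 CPM in developing replicates 1 to 4. The enamel genes AMELX, AMBN and ENAM made up most of that sum in every developing library and in functional replicate 1. They did not in the other functional libraries, so the sum mainly followed enamel genes where it was high. Functional replicate 1 and developing replicates 3 and 4, the libraries with the highest mitotic score in their groups, also had the highest epithelial sums of their groups. Within developing teeth the order was otherwise reversed. Developing replicate 1 scored above developing replicate 2 (0.41 and 0.18) with the lower sum, and developing replicate 3 above developing replicate 4 (1.4 and 1.21) with the lower sum. A link between the sum and the score was not tested. AMELX, the amelogenin gene, had 470, 3.69, 3.56 and 3.91 CPM in functional replicates 1 to 4, against 2160, 4960, 9500 and 17400 CPM in developing replicates 1 to 4. Its log2 fold change over all 8 libraries was -6.14 and did not pass (edgeR adjusted p = 0.129). Without functional replicate 1 it was -11.16 and passed (edgeR adjusted p = 0.0248), in a fit that called 0.833% of all genes lower. AMBN, the ameloblastin gene, had 461, 27.9, 51.6 and 14.1 CPM in functional and 1890, 2740, 7590 and 10300 CPM in developing replicates 1 to 4. Over all 8 libraries it did not pass either (log2 fold change -5.34, edgeR adjusted p = 0.0664). Without functional replicate 1 it passed as well (-7.49, edgeR adjusted p = 0.027). Functional replicate 1 was thus far above the other 3 functional libraries for both genes. The general epithelial markers EPCAM, TP63, GRHL2 and ESRP1 had log2 fold changes of 0.16, 0.12, 0.34 and -0.09 and overlapped between groups (edgeR adjusted p = 0.752, 0.889, 0.4 and 0.89). No marker of this list with a row was at 0 in a library, and CDH1, KRT5 and KRT14 are not analysed here.

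Odontoblast markers ran the other way. All 8 had positive log2 fold changes, as did 7775 of all 15491 genes. BGLAP was the 1 gene called higher, and it kept the call with the replicate block (edgeR adjusted p = 0.0258, block 0.0318). The shares of all genes were 0.8%, and 0.445% with the block. For 6 of the 8 the functional libraries lay above the developing ones without overlap, against 6.42% of all genes. DSPP and SP7 overlapped (log2 fold change 0.4 and 0.69, edgeR adjusted p = 0.611 and 0.329). DSPP was highest in developing replicate 1, at 6000 CPM. The list summed to 434000 to 474000 CPM in functional and 41300 to 208000 CPM in developing libraries, the lowest being developing replicates 3 and 4. COL1A1 and COL1A2 made up most of that sum in every library, so it mainly followed collagen mRNA. Macrophage and odontoclast markers were called higher in functional teeth for 3 of 12 genes, CTSS, ITGB2 and VSIG4, or for 2 with the replicate block, where CTSS lost the call (edgeR adjusted p = 0.0367, and 0.0518 with the block). Of all genes 0.8% were called higher, and 0.445% with the block. Sums of the macrophage and odontoclast list were 471, 540, 727 and 2070 CPM in functional replicates 1 to 4, against 328, 153, 242 and 201 CPM in developing replicates 1 to 4. Functional replicate 4, the male library, stood apart, mainly through CTSK, MMP9 and ACP5 (807, 523 and 423 CPM there). Of the 12 log2 fold changes 11 were positive and 1 negative, that of PTPRC (-0.04, edgeR adjusted p = 0.97). At an unadjusted edgeR p under 0.05, 11 of the 12 were higher (9.53% of all genes), and DESeq2 called 9 higher (4.74%). For 8 of the 12 the functional libraries lay above the developing ones without overlap (6.42%). Dental mesenchyme markers summed to 501 to 696 CPM in functional and 506 to 780 CPM in developing libraries, with 1 of 8 called lower (LHX8), against 2.01% of all genes. Red cell precursor markers summed to 96.7 to 208 CPM in functional and 70 to 248 CPM in developing libraries, and endothelial markers to 105 to 173 CPM in functional and 42.7 to 98.9 CPM in developing libraries, with 0 calls in edgeR for either (0 of 6 and 7 of 8 higher at an unadjusted p under 0.05, 0 and 3 by DESeq2). All genes had 9.53% higher at that unadjusted p and 4.74% higher in DESeq2. Lymphocyte markers summed to under 10 CPM in every library. The part of these cell types in the mitotic differences was not tested.

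**Figure D5:**
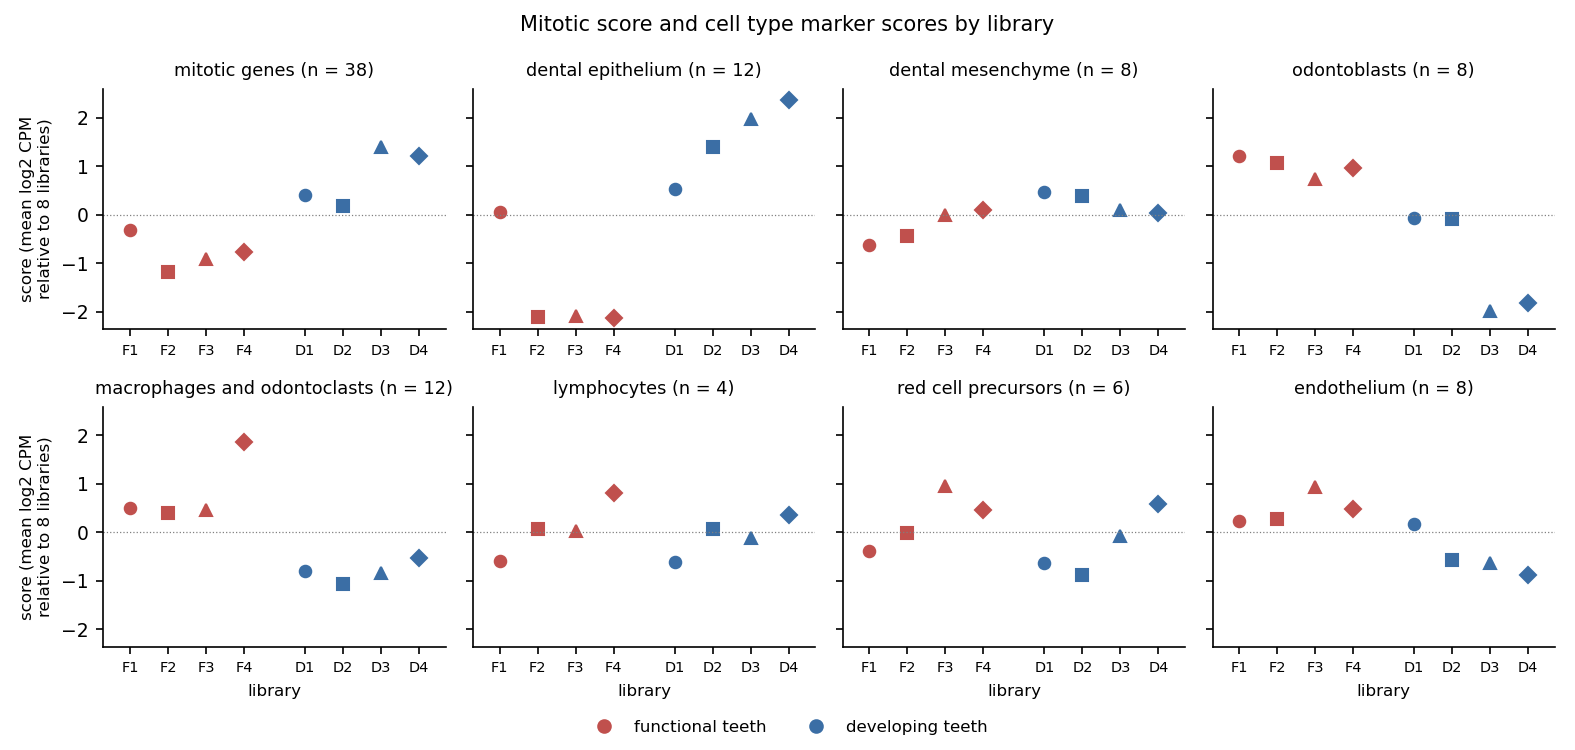
Score by library (mean log2 CPM relative to the 8 libraries) of the 38 mitotic genes and of 7 lists of cell type markers, for functional replicates F1 to F4 and developing replicates D1 to D4. The epithelial score is highest in D3 and D4 (1.97 and 2.37), as the mitotic score is (1.4 and 1.21), and the odontoblast score is lowest there (-1.98 and -1.83).

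The male pair of libraries did not change the direction of the difference. Among the 6 female libraries alone all 38 log2 fold changes were negative, with a median of -1.69, and 0 passed in edgeR (0.0129% of all genes were called lower). At an unadjusted p under 0.05, 34 of the 38 were lower and 0 higher (9.01% and 7.03% of all genes). With sex as a covariate 17 fell, against 2.74% of all genes. An interaction of tissue and sex was found for 0 of the 38 at an adjusted p under 0.05 and for 0 at an unadjusted p under 0.05, where 1.53% and 1.79% of all genes had one in the negative and positive direction. That test has 1 male library per group and takes its spread from the females. Sex cannot be told apart from the number of teeth per sample or from anything else particular to replicate 4, such as separate handling.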

How the data were processed

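RNA of functional and developing teeth was sequenced as 8 libraries. Per the labels' protocols, a stranded mRNA kit and paired ends of 59 bases were used. The deposited table holds 1 estimated count per gene and library, made by the authors with kallisto per the submitters' processing notes and not normalized. The version, annotation and strand setting were not given in the sources used here, and no coordinates are printed. All values were rounded, since 34.2% were not whole numbers.

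Row names were matched to RefSeq symbols of assembly MPM_Emac_v1.0. The 81 of 22488 that did not match (0.909% to 1.41% of the counts of a library) were dropped. In edgeR 4.0.16 (R 4.3.3), filterByExpr left 15491 genes, TMM was applied, and functional was set against developing teeth with the quasi-likelihood test and Benjamini-Hochberg adjustment over all genes. Standard errors are the log2 fold change over the square root of F. Scores use a prior count of 2. DESeq2 1.42.0, other scalings, a replicate block, a sex covariate and subsets of libraries (on the same genes) were run as alternatives.

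The members and lists were chosen with earlier results of these data known, and per-library values are given for members past the threshold and for a fixed set of well-known ones. Same-numbered libraries deviated together from their group means (r = 0.23, 0.16, 0.31 and 0.68 for numbers 1 to 4), over 0.1 in each pair. By a set rule the numbers were therefore treated as possible pairs, and a replicate block was run as an alternative. The main fit, with its 13 calls among the 38, has no block and ignores any pairing. With the block 5 of the 38 fell. The pairing is uncertain, since differently numbered libraries reached 0.41 (functional 3 with developing 1), 0.17 (functional 2 with developing 1) and 0.16 (functional 1 with developing 2). The largest r, 0.68, belongs to number 4, the male libraries of 10 and 11 teeth. There pairing cannot be told apart from shared sex, number of teeth or anything else particular to replicate 4, such as separate handling. The block is printed beside the calls it changes. No 2 columns were identical. On simulated counts for this comparison (15347 genes), the test recovered 7 of 50 genes with a 2-fold change, 42 of 50 with a 4-fold, 43 of 50 with an 8-fold and 44 of 50 with a 16-fold change, and called 6 unchanged genes.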

Additional observations from a re-analysis of the deposited data

Results flagged for a closer look

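For each tested member and the score, the highest and the lowest library of each group of 4 were compared with the other 3. In 2 of 78 such groups the gap took up more of the group's range than Dixon's critical value of 0.829, where chance gives about 1 in 20. TOP2A was at 12 CPM in functional replicate 1, against 6.98 to 7.74 CPM in the other 3 functional libraries (gap over range 0.849). KIF2C was at 3.42 CPM in developing replicate 3, against 1.34 to 1.58 CPM in the other 3 developing libraries (0.884).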

How the results depend on the processing

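Direction was stable and the number of calls was not: all 38 members had a negative log2 fold change under all 16 alternatives, while members called lower, 13 in the fit reported, numbered 38 without normalization, 34 in DESeq2, 5 with the replicate block and 0 among female libraries, and between 0 and 23 without 1 library. The median without normalization was -2.46 and the score difference -2.17, where the median of all genes shifted to -0.59; relative to that shift the members' median was -1.87. Median and score otherwise moved by less than the spread between replicates. Other mitosis genes called lower (16) numbered 107, 49, 6 and 0 in those 4 settings, and between 0 and 30 without 1 library. All genes called lower (312) numbered 7453, 959, 151 and 2, and between 5 and 444 without 1 library. All genes called higher (124) numbered 721 in DESeq2, 69 with the block, 246 with the sex covariate and 1 among female libraries, and between 2 and 182 without 1 library. Without a filter on low counts 10 of the 13 calls remained. No member or other mitosis gene was called higher under any alternative. The cause of these changes was not tested. Members measured with few counts, KIF2C and CCNB2 above all, limit what small differences can be seen.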
